A study of Mus musculus with 96 samples.

Results

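The period genes Per1, Per2 and Per3 and the cryptochrome genes Cry1 and Cry2 encode the repressors of the mammalian circadian clock. These 5 genes, picked by their symbols and not by their values, were followed among the 25095 gene symbols of an RNA sequencing series from mouse liver. All 5 passed the filter on low values in every table, so no member was left out.

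The series held 96 libraries in 32 groups of 3, formed by 4 labelled genotypes, by hepatocytes and liver macrophages, and by 4 zeitgeber times (ZT counts hours from the onset of light, and darkness began at ZT12). All mice were C57BL/6J males that had eaten D12492i, a diet rich in fat and sucrose, for 4 weeks, and were sampled at ZT4, ZT10, ZT16 or ZT22. Every group carried floxed alleles and was injected as adults with an adeno-associated virus. Control mice received the virus encoding GFP, and the knockout mice received the virus encoding the Cre recombinase, in both cases under the hepatocyte-specific TBG promoter. RevDKO denotes hepatocyte deletion of Nr1d1 and Nr1d2, the genes for REV-ERBα and REV-ERBβ. In RevScapTKO mice Scap was deleted too, whose product escorts the SREBP lipid regulators to their activation. ScapKO mice lost Scap only. Macrophages were not targeted by the deletion, since TBG drives Cre in hepatocytes. The labels number the replicates without naming animals, so each p-value measures the spread between these libraries.

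In the clock of mammalian cells, BMAL1 (Arntl) pairs with CLOCK or NPAS2, binds E-box sequences and switches on the period and cryptochrome genes. PER and CRY proteins build up, enter the nucleus together and block those activators, and their turnover lets the next cycle begin. REV-ERBs close a second loop by repressing Arntl, Npas2 and Nfil3, and Cry1 is a known REV-ERB target as well. In the liver these loops time the transcription of metabolic genes, and feeding as well as light sets their phase.

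The members lie on different chromosomes of the mm9 genome. Per1 (NM_001159367) occupies chr11:68913654-68923459 on the plus strand. The other 4 are on the minus strand, Per2 (NM_011066) at chr1:93312559-93355905, Per3 (NM_001289878) at chr4:150377764-150418774, Cry1 (NM_007771) at chr10:84594445-84647799 and Cry2 (NM_009963) at chr2:92243804-92274226. Per1 and Per3 had further listed transcripts with near-equal values, and in the ScapKO hepatocyte table the highest Per1 transcript was NM_011065, which starts at position 68912451. Cry2 overlaps D930015M05Rik, a gene of the opposite strand, over 23417 bases; that gene averaged 16.6 RPKTM in hepatocytes, and whether counting used the strand is not given in the sources used here.

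The clock acts on these genes through short DNA elements, so the 250 bases before the annotated start are shown for the member that changed most between genotypes (Cry1), for its close relative (Cry2) and for the member with the widest daily swing among the period genes (Per3). They are RefSeq promoter sequences of build GRCm38.p6, found again by exact match in mm9, and read 5′ to 3′ on the gene's strand. Capitals mark the matches to the motifs searched, and the regions are chr10:84647800-84648049, chr2:92274227-92274476 and chr4:150418775-150419024.
Cry1: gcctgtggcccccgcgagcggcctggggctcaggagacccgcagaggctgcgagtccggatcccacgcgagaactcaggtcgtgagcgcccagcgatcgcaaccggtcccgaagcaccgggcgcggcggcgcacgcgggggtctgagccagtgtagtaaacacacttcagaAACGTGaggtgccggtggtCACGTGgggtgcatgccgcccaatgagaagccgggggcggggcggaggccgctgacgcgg
Cry2: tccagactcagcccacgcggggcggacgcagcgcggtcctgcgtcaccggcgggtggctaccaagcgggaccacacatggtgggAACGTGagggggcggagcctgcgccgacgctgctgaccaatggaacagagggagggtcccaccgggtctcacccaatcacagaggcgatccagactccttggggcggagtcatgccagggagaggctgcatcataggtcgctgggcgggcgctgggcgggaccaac
Per3: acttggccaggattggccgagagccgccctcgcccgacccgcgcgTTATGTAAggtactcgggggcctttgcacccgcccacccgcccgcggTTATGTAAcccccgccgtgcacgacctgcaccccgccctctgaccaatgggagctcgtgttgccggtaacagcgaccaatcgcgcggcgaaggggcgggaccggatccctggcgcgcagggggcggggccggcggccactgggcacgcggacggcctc

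Cry1 held the E-box CACGTG with its first base at -60 and the variant AACGTG at -79, counted from the start of the transcript. Cry2 held only the variant, at -166. Per3 held no E-box of either kind in this window and 2 copies of the D-box TTATGTAA, the element read by DBP, HLF, TEF and NFIL3, at -205 and -158. Per1 had 2 entries, of which the upstream one (chr11:68912201-68912450) held CACGTG at -166 and TGACCT, the reverse complement of the AGGTCA core read by REV-ERBs, at -137, and the downstream one (chr11:68913404-68913653) held none of the motifs. Counting both strands, CACGTG was present in 6.02% of all 32851 promoters of this length, CACGTT or AACGTG in 3.85%, TTATGTAA or TTACATAA in 0.819% and AGGTCA or TGACCT in 14.0%. The D-box variant TTACGTAA (0.113%) and the cyclic AMP element TGACGTCA (1.55%) were in none of the member windows. A match is a description of letters, not a bound site. Per2 is named only.

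Values are RPKTM, a read density per kilobase of transcript and per library total that is 10 times an RPKM, as quantile normalized by the authors within each table. The hepatocyte and macrophage tables of Control, RevDKO and RevScapTKO held 36 libraries each, and the ScapKO tables held 12 each. Tests stayed within a table, and the depth of the libraries is unknown. In hepatocytes, Nr1d1 went against the RevDKO label: its level was 1.55 log2 higher in RevDKO than in Control (SE 0.25, adjusted p = 8.87e-05, limma), with means of 257 and 244 RPKTM at ZT4 but 8.28 and 53.2 at ZT22. Nr1d2 differed by 0.62 (SE 0.19, adjusted p = 0.0626). The study itself reports relative mRNA of both genes as markedly lower in knockout hepatocytes, and this disagreement was not resolved here. RevDKO below therefore means the libraries labelled RevDKO, and which exons of these genes were counted was not tested. Scap fell by 1.40 log2 from RevDKO to RevScapTKO (SE 0.14, adjusted p = 9.77e-09), as labelled. All 10 hepatocyte markers and all 10 macrophage markers on fixed lists were above 0 in every library of the 3-genotype tables. In bulk RNA, fewer cells of a type and less RNA per cell cannot be told apart.

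In Control hepatocytes all 5 repressors had a daily pattern by the rank test of the study, where 29.0% of genes did, and they did not peak together. With each library entered once in that test (11.5% of genes), or by a cosine fit (8.29%), the count was 3, namely Per2, Per3 and Cry1. Averaged over the day and expressed per transcript length, Per2 was the most abundant at 229.6 RPKTM, followed by Per3 at 174, Cry2 at 105, Per1 at 90.1 and Cry1 at 88.7. A fitted 24 h cosine placed the peak of Per3 at ZT9.81, of Cry2 at ZT10.4, of Per2 at ZT13.7, of Per1 at ZT14.8 and of Cry1 at ZT18.3. The period genes thus crested around dusk and Cry1 in the middle of the night. Peak times rest on samples taken every 6 h. The swing from trough to peak was widest for Cry1, at 3.23 log2 (SE 0.29), and for Per3, at 3.08 (SE 0.54). Per2 swung by 1.7 (SE 0.29), Per1 by 0.91 (SE 0.35) and Cry2 by 0.77 (SE 0.24).

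**Figure D1:**
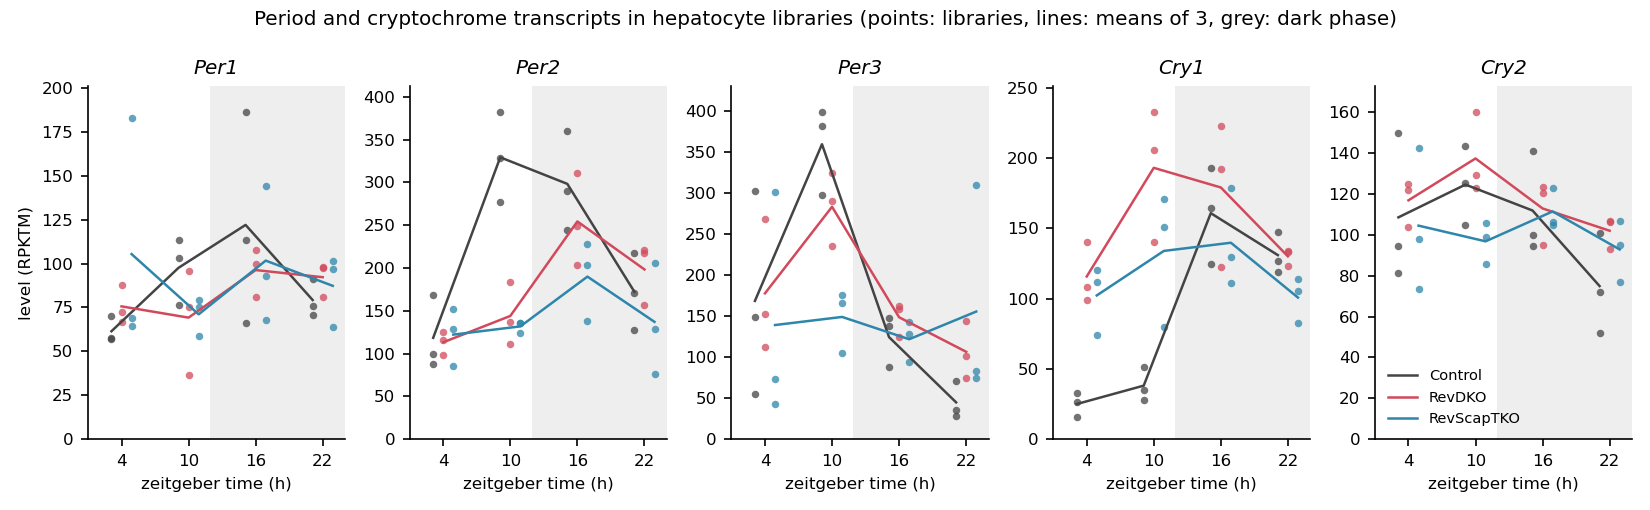
RPKTM of Per1, Per2, Per3, Cry1 and Cry2 (1 panel each, y axis from 0) in hepatocytes against zeitgeber time in hours (x axis), with 1 point per library and lines through the means of 3 libraries for Control, RevDKO and RevScapTKO. Cry1 climbed from 24.9 at ZT4 to 161 at ZT16 in Control, whereas its RevDKO means stayed between 116 and 193.

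Cry1 was the member that differed most between RevDKO and Control hepatocytes, and both time points at which it passed the test were in the light phase. Its product is a strong transcriptional repressor of the core clock. At ZT4 its level was 32.9, 26.3 and 15.5 RPKTM in the 3 Control libraries and 141, 98.7 and 108 in the 3 RevDKO libraries. At ZT10 the Control libraries held 28.1, 34.7 and 51.3 and the RevDKO libraries 141, 233 and 206. Every RevDKO library was above every Control library at both times, where the libraries of 12.2% (ZT4) and 17.1% (ZT10) of all genes did not overlap in one direction or the other.

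After dark the genotypes met. At ZT16 Cry1 stood at 125, 165 and 193 RPKTM in Control and 192, 122 and 223 in RevDKO. At ZT22 it stood at 119, 147 and 127 in Control and 133, 123 and 134 in RevDKO. The libraries overlapped at both night times, and the RevDKO light-phase values lay within the span of the Control night values or above it, apart from 2 ZT4 libraries just below it.

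The group means rose 4.64-fold at ZT4, from 24.9 ± 8.78 (SD, n = 3) to 116 ± 21.9 (SD, n = 3), and 5.07-fold at ZT10, from 38.1 ± 11.9 (SD, n = 3) to 193 ± 47.4 (SD, n = 3). On the log2(RPKTM + 1) scale these differences were 2.22 (SE 0.29, adjusted p = 3.17e-05, limma over all genes) and 2.33 (SE 0.29, adjusted p = 3.86e-06). The differences at ZT16, 0.13 (SE 0.29), and at ZT22, -0.0049 (SE 0.29), did not pass the test. Over the whole day the difference was 1.17 (SE 0.14, adjusted p = 1.20e-06). The day-long mean passed for 1 of the 5 members, where 4.43% of 13326 genes tested did. At single times the background was 0.585% at ZT4, 1.2% at ZT10 (158 genes), 0.3% at ZT16 and 0.488% at ZT22.

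The size of the Cry1 difference between times of day was itself tested as a change in the 24 h cosine and sine terms. The fitted change had a peak-to-trough size of 3.13 log2 (adjusted p = 0.000242), against a background of 0.203% of genes (27 of 13326). Leaving out any single one of the 24 libraries kept the adjusted p between 0.000163 and 0.00158. The daily swing of Cry1 went from 3.23 (SE 0.29) in Control to 0.80 (SE 0.29) in RevDKO. Macrophage markers in the hepatocyte libraries moved with clock time in both genotypes. Their summed level ran from 192 to 526 RPKTM at ZT4 and from 1739 to 2534 at ZT22 in Control, and from 398 to 672 at ZT4 and from 1385 to 1992 at ZT22 in RevDKO. With a macrophage marker score in the fit, the Cry1 difference was 2.40 at ZT4 (adjusted p = 2.19e-06), against 2.22 without it. At ZT10 it was 2.45 with the score and 2.33 without.

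The balance of the cryptochromes differed between genotypes by day, with Cry1 past the test and Cry2 not. In Control hepatocytes the ratio of Cry1 to Cry2 had a median of 0.278 at ZT4 and 0.277 at ZT10, against 1.32 at ZT16 and 1.76 at ZT22. In RevDKO the medians were 0.866, 1.6, 1.56 and 1.25 in the same order. Both genes are counted per length, so Cry2 was the more abundant cryptochrome transcript by day in Control, while at ZT10 in RevDKO Cry1 was above Cry2 in the median library. These ratios are given as a description.

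Per2 fell in RevDKO hepatocytes at one time of day, late in the light phase. PER2 is a scaffold of the repressor complex and a main route by which feeding and stress hormones reset the clock. At ZT10 its level was 277, 329 and 382 RPKTM in Control and 136, 111 and 184 in RevDKO. All 3 RevDKO libraries were below all 3 Control libraries, a lack of overlap found in 17.1% of genes. The means, 329 ± 52.6 (SD, n = 3) and 144 ± 36.9 (SD, n = 3), differed 2.29-fold, or -1.21 log2 (SE 0.29, adjusted p = 0.0227).

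That call was close to the threshold. It was lost without Control ZT10 replicate 2 (adjusted p = 0.104) or replicate 3 (0.173), and without RevDKO ZT10 replicate 1 (0.0914) or replicate 2 (0.189). It was also lost with no filter on low values (adjusted p = 0.0800) and with centring on reference genes (0.0860). The log2 difference stayed between -1.24 and -1.04 in these fits.

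At the other times Per2 libraries of the 2 genotypes overlapped. The values at ZT4 were 87.2, 99.5 and 168 in Control and 125, 98.6 and 116 in RevDKO. At ZT16 they were 290.4, 360.1 and 245 in Control and 311, 203 and 249.7 in RevDKO. At ZT22 Control held 128, 171 and 218 and RevDKO 217, 222 and 156. The Control rise was already at its height at ZT10, whereas the RevDKO maximum was at ZT16. The cosine peaks were ZT13.7 in Control and ZT17.5 in RevDKO, with swings of 1.7 and 1.2 log2, but the change in the 24 h terms did not pass the test (1.44 log2, unadjusted p = 0.00542, adjusted p = 0.549).

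Per3, whose protein binds the other PER and CRY proteins but is not required for the clock to run, had its deepest trough in Control at ZT22. There its level was 35.8, 70.4 and 28.0 RPKTM in Control and 144, 101 and 74.4 in RevDKO, so that the groups did not overlap, as in 16.3% of genes. The difference of 1.3 log2 (SE 0.54, unadjusted p = 0.0231) did not pass over all genes (adjusted p = 0.493). At ZT10, the maximum of both genotypes, Per3 stood at 398, 381 and 297 in Control and 323, 290.0 and 235 in RevDKO.

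The Control libraries at ZT4 spread widely for Per3, at 54.3, 149 and 302, and overlapped the RevDKO values of 268, 152 and 112. At ZT16 the 2 groups also overlapped, at 147, 138 and 87.5 in Control and 162, 158 and 125 in RevDKO. The daily swing was 3.08 log2 (SE 0.54) in Control and 1.45 (SE 0.54) in RevDKO, and the test of the change in rhythm gave an unadjusted p of 0.118.

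Per1, the period gene known for fast induction by light and glucocorticoids, did not pass the test in RevDKO at any time. Its libraries ran from 57.0 to 186 RPKTM in Control and from 36.8 to 108 in RevDKO. The widest difference was at ZT10, where Control held 76.6, 103 and 113 and RevDKO 36.8, 75.02 and 95.8 (-0.58 log2, SE 0.35, adjusted p = 0.778). Cry2, the cryptochrome that is expressed more evenly over the day, ran from 52.0 to 149.9 in Control and from 92.8 to 160.1 in RevDKO. Its widest difference was at ZT22, where Control held 101, 52.0 and 71.9 and RevDKO 107, 106 and 92.8 (0.49 log2, SE 0.24, adjusted p = 0.589).

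**Figure D2:**
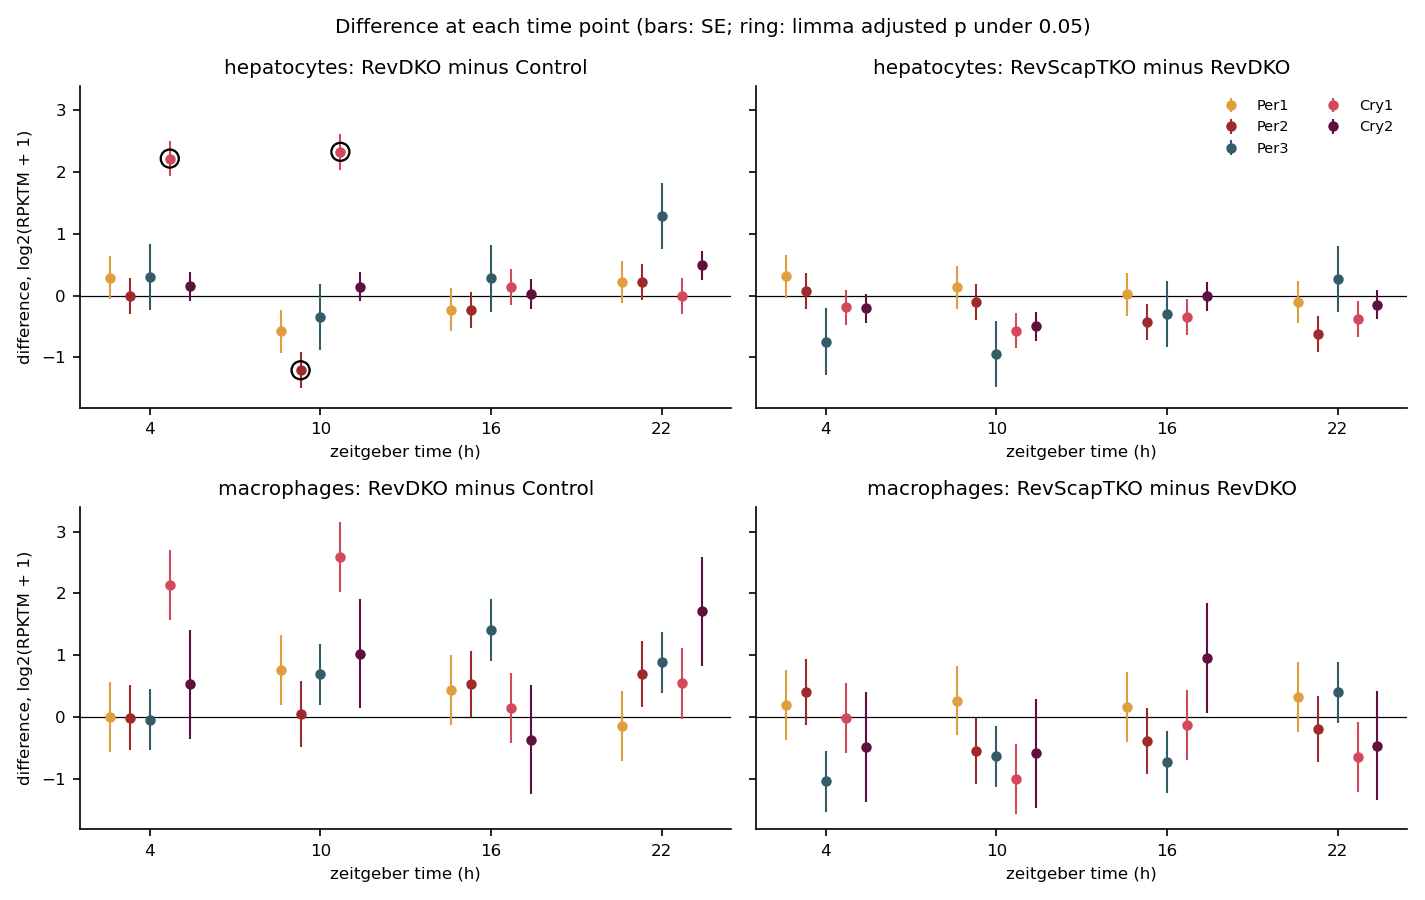
Log2 differences of the 5 members (y axis, on the log2(RPKTM + 1) scale, with SE bars) at ZT4, ZT10, ZT16 and ZT22 (x axis), in 4 panels, 2 for each cell type, showing RevDKO minus Control and, beside it, RevScapTKO minus RevDKO. Rings mark the differences past an adjusted p of 0.05: Cry1 at ZT4 (2.22) and ZT10 (2.33) and Per2 at ZT10 (-1.21), all in hepatocytes and RevDKO minus Control.

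Ordering the 12 hepatocyte groups of the 3 genotypes by level showed how few steps stood clear of the spread. For Cry1 the order ran from RevDKO at ZT10 (193 ± 47.4 SD) down to Control at ZT4 (24.9 ± 8.78). Of its 11 pairs of neighbours 10 had overlapping libraries, and the break lay between RevScapTKO at ZT22 (101 ± 16.2) and Control at ZT10 (38.1 ± 11.9). Only the 2 Control light-phase groups were thus set apart. For Per3 the single break lay between RevDKO at ZT22 (106 ± 34.9) and Control at ZT22 (44.7 ± 22.6). Neighbours overlapped in all 11 pairs for Per1, Per2 and Cry2. Per2 ran from Control at ZT10 (329 ± 52.6) to RevDKO at ZT4 (113 ± 13.4).

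Adding the deletion of Scap left no difference from RevDKO that passed the test in any member, and the Cry1 means were lower at each time. Its RevScapTKO libraries held 112, 121 and 74.3 RPKTM at ZT4 and 171, 80.0 and 151 at ZT10. At ZT16 they held 178, 129.5 and 111, and at ZT22 114, 82.6 and 106. They overlapped the RevDKO libraries at the first 3 times and lay below all 3 of them at ZT22, where 22.7% of genes did not overlap. Over the day Cry1 was -0.37 log2 from RevDKO (SE 0.14, unadjusted p = 0.0161, adjusted p = 0.0583).

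Leaving out any of 7 of the 24 libraries brought that adjusted p under 0.05, namely RevDKO ZT10 replicate 1, RevDKO ZT16 replicate 2, RevScapTKO ZT4 replicates 1 and 2, RevScapTKO ZT10 replicates 1 and 3, and RevScapTKO ZT16 replicate 1. Over all 24 the difference ran from -0.43 to -0.29 and the adjusted p from 0.0304 to 0.139. With a macrophage marker score in the fit, the day-long Cry1 difference from Control was 1.21 log2 in RevDKO and 1.18 in RevScapTKO. Without the score it was 1.17 in RevDKO and 0.80 in RevScapTKO. For the other members the day-long differences of RevScapTKO from RevDKO were -0.27 for Per2 (adjusted p = 0.170), -0.43 for Per3 (0.244), -0.22 for Cry2 (0.180) and 0.09 for Per1 (0.734). None of the 5 passed, where 26.2% of genes did. At single times the background was 9.28% at ZT4, 0.908% at ZT10, 1.37% at ZT16 and 2.35% at ZT22, again with none of the members, and at unadjusted p only Cry2 at ZT10 (0.0442) and Per2 at ZT22 (0.0381) were under 0.05. No gene passed for a change in rhythm (0.0% of 13326, with 674 at an unadjusted p under 0.05).

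Some RevScapTKO libraries stood outside their group. Per3 was 43.2, 300.3 and 73.0 RPKTM at ZT4 and 73.9, 309 and 82.5 at ZT22, with replicate 2 high at both times. The other 2 groups were tighter, at 166, 176 and 105 at ZT10 and 143, 93.6 and 128 at ZT16. At ZT10 all RevScapTKO libraries were below all RevDKO libraries for Per3 (-0.95 log2, SE 0.54, adjusted p = 0.484) and for Cry2 (-0.50, SE 0.24, adjusted p = 0.382), where 16.3% of genes did not overlap.

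Per2 had no maximum at ZT10 in RevScapTKO either. Its libraries held 129, 152 and 85.4 at ZT4 and 135, 136 and 124 at ZT10. They held 228, 204 and 138 at ZT16 and 206, 76.1 and 129 at ZT22. All values at ZT10 were below the lowest Control library of that time, where 28.0% of genes did not overlap in one direction or the other. Against Control, the day-long level of Per2 in RevScapTKO fell by 0.58 log2 (SE 0.14, adjusted p = 0.00251) and that of Cry1 rose by 0.80 (SE 0.14, adjusted p = 8.38e-05).

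The other 3 members gave 0.02 for Per1 (adjusted p = 0.945), -0.05 for Per3 (0.904) and -0.01 for Cry2 (0.938), so 2 of 5 members passed, where 35.9% of genes did. This comparison shares its Control libraries with that of RevDKO. At single times 2 members passed against Control. Cry1 was higher by 2.02 log2 at ZT4 (SE 0.29, adjusted p = 1.73e-05) and by 1.76 at ZT10 (SE 0.29, adjusted p = 0.000134), and Per2 was lower at ZT10 (-1.30, SE 0.29, adjusted p = 0.00549).

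None of the members passed at ZT16 or ZT22. The backgrounds were 18.9% of genes at ZT4, 4.35% at ZT10, 3.24% at ZT16 and 3.62% at ZT22. Leaving out any one of the 24 libraries kept these 3 calls, with adjusted p of up to 0.0434 for Per2 and 0.00306 for Cry1. At ZT22 Cry1 lay below all Control libraries (-0.38, SE 0.29, adjusted p = 0.509), where 24.4% of genes did not overlap. Macrophage markers were higher in these libraries, with a summed median of 2445 RPKTM (769 to 4917) against 713 (192 to 2534) in Control and 887 (353 to 1992) in RevDKO. With a macrophage marker score in the fit the Per2 difference was -0.53 and no longer passed (adjusted p = 0.153).

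The rank test of daily rhythm, JTK_CYCLE run with the series of 12 libraries entered 2 times as in the methods of the study, gave fewer calls in the knockout hepatocytes. It called 5 of 5 in Control, 3 in RevDKO (Per2, Per3 and Cry1) and none in RevScapTKO. The backgrounds were 29.0%, 29.7% and 20.8% of genes. The step from 5 to 3 came from the required ratio of 1.5 between the highest and the lowest time mean, since Per1 (adjusted p = 0.00459, ratio 1.39) and Cry2 (0.00103, ratio 1.35) passed the rank test in RevDKO but not that ratio. Without it RevDKO had 5 calls as well, and RevScapTKO none. Entering the series again adds no data. Entered once, the test called 3 members in Control (Per2, Per3 and Cry1), 2 in RevDKO (Per2 and Per3) and none in RevScapTKO, with backgrounds of 11.5%, 9.63% and 3.46%.

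A 24 h cosine fit (limma F test) gave 3, 1 and 0 members, where 8.29%, 4.08% and 0.683% of genes passed. In Control these were Cry1 (adjusted p = 4.16e-08), Per2 (0.00135) and Per3 (0.00149). In RevDKO the only one was Per2 (adjusted p = 0.0314), a call lost when any of 8 of the 12 libraries was left out (RevDKO ZT4 replicates 1, 2 and 3, ZT10 replicate 2, ZT16 replicates 1 and 3, and ZT22 replicates 1 and 2), with an adjusted p of up to 0.111. In RevScapTKO the swings were 0.28 log2 for Per1, 0.64 for Per2, 0.36 for Per3, 0.57 for Cry1 and 0.16 for Cry2. The smallest adjusted p by JTK_CYCLE in RevScapTKO was 0.143, for Cry1, and the count of 0 became 1 without RevScapTKO ZT4 replicate 2 or without ZT10 replicate 2. Among the members, Cry1 alone passed the test of a changed rhythm between RevDKO and Control. It also was the one that passed between RevScapTKO and Control, with a change of 3.09 log2 (adjusted p = 0.000347, 0.188% of genes), and none passed between RevScapTKO and RevDKO, so a missing call by itself does not show a lost rhythm.

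**Figure D3:**
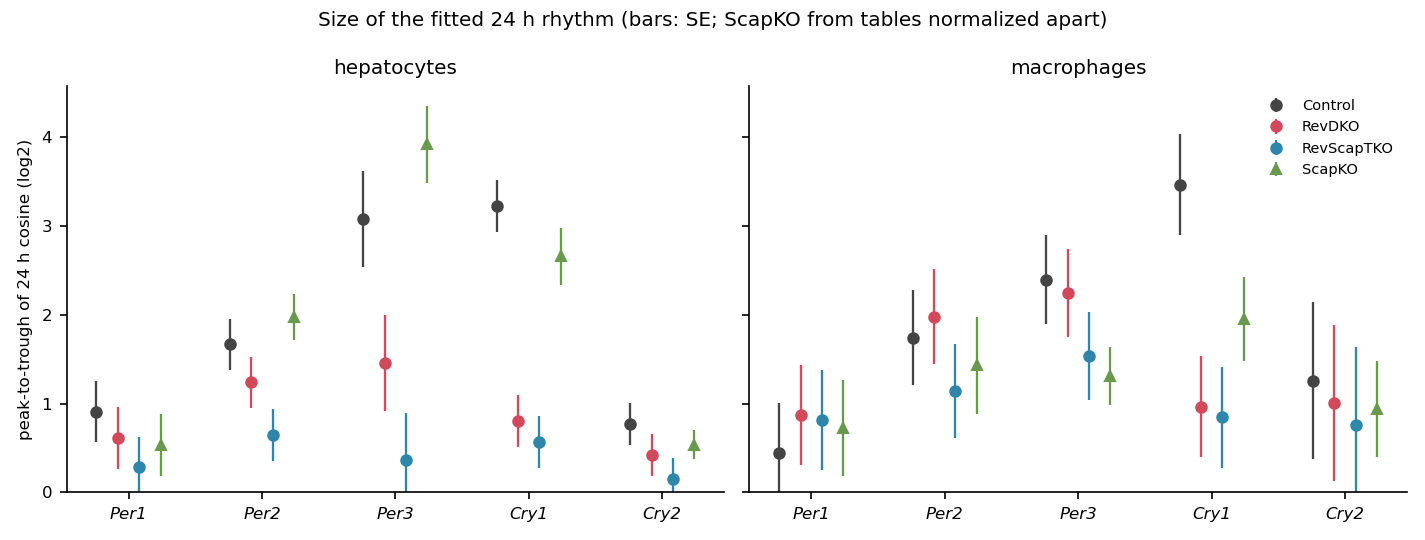
Peak-to-trough swing of each member (y axis, log2) from the 24 h cosine fit in Control, RevDKO and RevScapTKO, and in ScapKO as triangles from tables normalized apart, for hepatocytes and macrophages; bars are SE, cut at 0. In hepatocytes the swing of Cry1 was 3.23 in Control, 0.80 in RevDKO, 0.57 in RevScapTKO and 2.66 in ScapKO.

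ScapKO hepatocytes, which keep REV-ERBs, showed wide daily patterns of the same 3 members. These libraries were normalized in a table of their own with no Control in it, so their levels are described within the table. Cry1 was 121, 51.4 and 53.9 RPKTM at ZT4 and 75.9, 85.5 and 50.8 at ZT10, and rose to 333, 274 and 226 at ZT16 and 249, 183 and 311 at ZT22. Every night library was above every light-phase library. The share of all genes set apart between times was not counted for ScapKO libraries of either cell type.

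Per3 moved the most, from 34.2, 15.9 and 23.8 at ZT22 to 299, 384 and 286 at ZT10. It lay between these levels at ZT4 (34.5, 146 and 89.6) and ZT16 (128, 192 and 259). Per2 was 314, 393 and 310.0 at ZT10 and 299, 498 and 504 at ZT16. Both groups were above all libraries of ZT4 (93.4, 181 and 159.5) and ZT22 (132, 161 and 157). Per2 was thus already high at ZT10.

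The fitted swings were 2.66 log2 for Cry1 (SE 0.32, peak at ZT18.8, adjusted p = 0.00273), 3.92 for Per3 (SE 0.43, ZT11.2, adjusted p = 0.00133) and 1.97 for Per2 (SE 0.25, ZT13.6, adjusted p = 0.00360). All 3 calls held when any of the 12 libraries was left out. Per1 swung by 0.53 and Cry2 by 0.54 and did not pass, with libraries from 69.9 to 271 and from 168 to 279 RPKTM. JTK_CYCLE called 3 of 5 members with the series entered 2 times (19.1% of genes) and the same 3 entered once (5.71%), and the cosine fit called those 3 as well (1.85%). The median ratio of Cry1 to Cry2 was 0.301 at ZT4, 0.317 at ZT10, 0.997 at ZT16 and 1.33 at ZT22.

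The labels of these libraries disagree, with hepatocytes in the title and macrophages in the cell type field. The title was followed, and the summed hepatocyte markers ran from 350374 to 1183850 RPKTM. The lowest hepatocyte sum and the highest macrophage sum (2791, against a median of 706) belonged to ScapKO ZT22 replicate 2. Without that library the Per3 swing was 3.66.

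**Figure D4:**
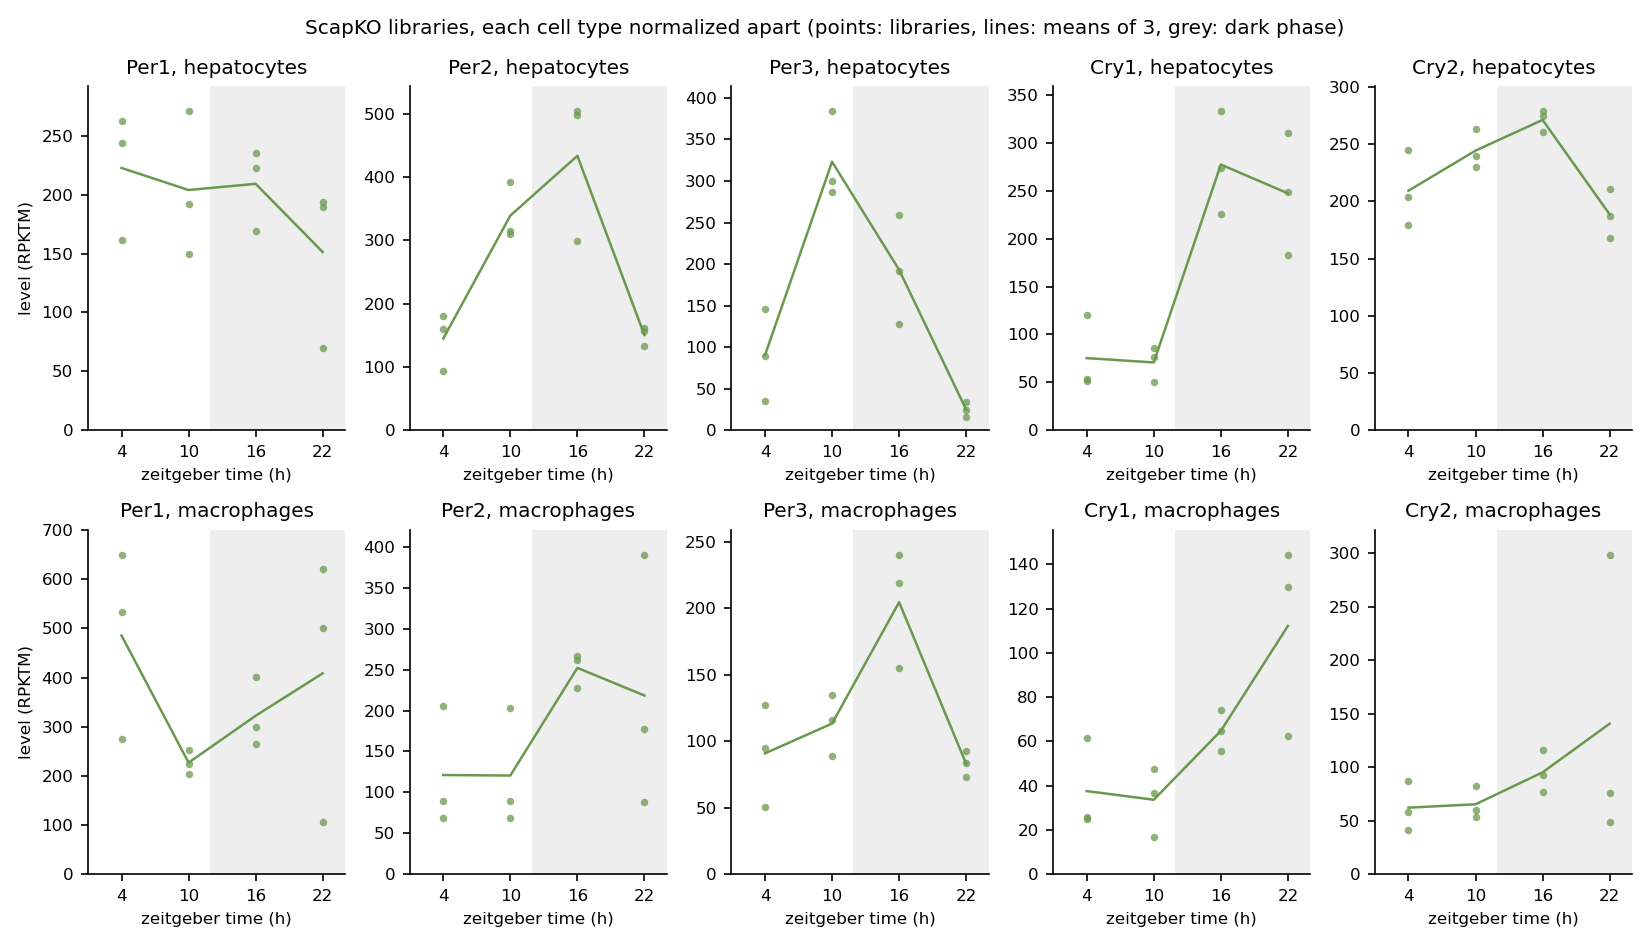
RPKTM of the 5 members in ScapKO hepatocytes and ScapKO macrophages (y axis from 0) against zeitgeber time in hours, with 1 point per library and lines through the means of 3; the 2 cell types were normalized in separate tables. In hepatocytes every Cry1 library of ZT16 and ZT22 was above every library of ZT4 and ZT10.

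The virus did not target liver macrophages, but their libraries also held hepatocyte RNA, as given below. Cry1 was again the member that rose in these libraries. It was low in Control by day, at 4.40, 2.58 and 3.14 RPKTM at ZT4 and 1.55, 10.6 and 8.93 at ZT10, 4 of the 6 under the filter level of 5. In RevDKO it held 20.3, 9.03 and 31.2 at ZT4 and 36.02, 50.6 and 32.2 at ZT10. The RevDKO libraries were above the Control libraries at both times, without overlap, as 7.06% of genes at ZT4 and 18.5% at ZT10 had none. At night they overlapped, with 16.9, 47.1 and 41.2 at ZT16 in Control and 31.8, 24.3 and 57.9 in RevDKO.

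At ZT22 Cry1 held 23.1, 28.2 and 17.8 in Control macrophages and 45.7, 34.4 and 23.9 in RevDKO. The day-long level was 1.35 log2 higher in RevDKO (SE 0.28, adjusted p = 0.0132), 1 of 5 members against 0.574% of 13947 genes. The differences at ZT4, 2.14 (SE 0.57, adjusted p = 0.720), and at ZT10, 2.59 (SE 0.57, adjusted p = 0.0786), did not pass, where the backgrounds were 0.00717% at ZT4 and 0.0789% at ZT10. At ZT16 0.043% of genes passed, and at ZT22 and for the change in rhythm 0.0% (1641 and 767 genes at an unadjusted p under 0.05). The change in Cry1 rhythm was 2.86 log2 (unadjusted p = 0.00468, adjusted p = 0.891). The ZT10 call was gained without Control ZT22 replicate 3 (adjusted p = 0.0454) or RevDKO ZT10 replicate 3 (2.72, adjusted p = 0.0295), and with a replicate block in the fit (2.59, adjusted p = 0.0393).

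Hepatocyte RNA was present in every macrophage library. Alb, the gene for serum albumin, had a median of 73347 RPKTM in the macrophage table and 298478 in the hepatocyte table. The summed hepatocyte markers ran from 47256 to 1616460 in Control, from 42445 to 96791 in RevDKO and from 29170 to 818434 in RevScapTKO, and 3 libraries were more than 5 times the table median of 85358: Control ZT16 replicate 1, Control ZT22 replicate 1 and RevScapTKO ZT22 replicate 3. In these 3 libraries the sum was mostly Alb, which reached 1606980, and after quantile normalization the level of Alb follows its rank. Whether they held more hepatocyte RNA than the others was not tested. The macrophage markers had medians of 14190, 7430 and 7938 in Control, RevDKO and RevScapTKO. Without these 3 libraries the day-long Cry1 difference was 1.25 log2 and missed the threshold (adjusted p = 0.0670). With a hepatocyte marker score in the fit it was 1.18 (adjusted p = 0.0281). In the hepatocyte libraries Cry1 itself differed, with means of 24.9 RPKTM in Control and 116 in RevDKO at ZT4. A score for the amount of hepatocyte RNA does not remove a difference carried within that RNA. Whether the Cry1 difference in the macrophage libraries arose in macrophages or in the hepatocyte RNA was not tested.

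**Figure D5:**
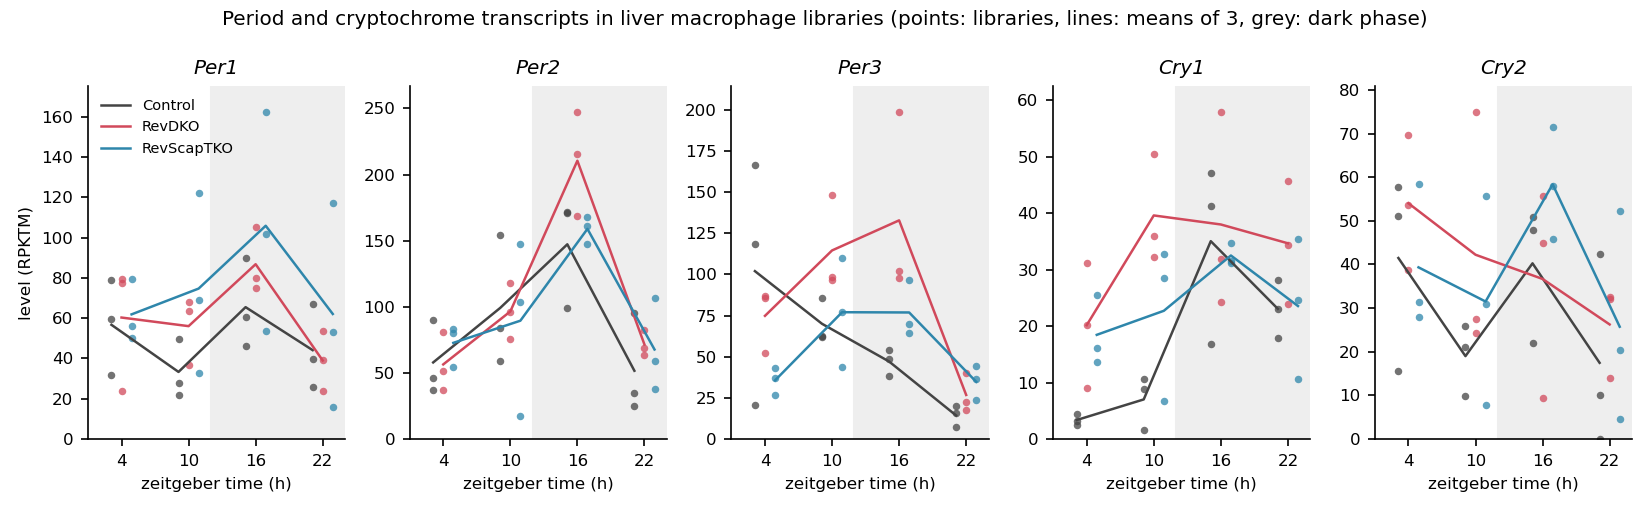
RPKTM of the 5 members in liver macrophages (1 panel each, y axis from 0) against zeitgeber time in hours, with 1 point per library and lines through the means of 3 libraries for Control, RevDKO and RevScapTKO. Cry1 lies between 1.55 and 10.6 RPKTM in the Control libraries of ZT4 and ZT10 and between 9.03 and 50.6 in the RevDKO libraries of those times.

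Per3 was the other member without overlap between Control and RevDKO macrophages, and it passed no test. At ZT16 it held 48.5, 38.5 and 54.4 RPKTM in Control and 102, 198 and 98.0 in RevDKO, without overlap (1.41 log2, SE 0.50, adjusted p = 0.333; 15.8% of genes had none). At ZT10 it held 62.3, 62.1 and 85.7 in Control and 148, 96.9 and 98.3 in RevDKO, also without overlap (0.69 log2, SE 0.50, adjusted p = 0.695; 18.5% of genes). The Control libraries of ZT4, at 20.9, 119 and 166, spread over more than the whole RevDKO group of 85.5, 87.0 and 52.0. At ZT22 Control held 15.9, 7.18 and 19.9 and RevDKO 17.9, 40.002 and 22.4, and the ZT22 mean was the lowest in both. Over the day the difference was 0.74 (SE 0.25, unadjusted p = 0.00565, adjusted p = 0.191) and did not pass.

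Per2 peaked at ZT16 in macrophages of both genotypes, at 98.8, 172 and 171 in Control and 216, 169 and 247 in RevDKO. At ZT10, where Per2 differed in hepatocytes, the macrophage libraries held 59.3, 84.2 and 154 in Control and 95.9, 75.4 and 118 in RevDKO and overlapped (0.05 log2, SE 0.53). The difference between cell types was not tested, since the tables were normalized apart. Per1 ran from 22.1 to 89.9 in Control and from 23.7 to 105 in RevDKO. Cry2 ran from 0, in Control ZT22 replicate 2, to 57.7 in Control and from 9.49 to 74.9 in RevDKO. Day-long differences were 0.32 for Per2 (adjusted p = 0.566), 0.27 for Per1 (0.665) and 0.72 for Cry2 (0.466).

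With Scap deleted as well, macrophage Cry1 held 25.5, 13.7 and 16.2 RPKTM at ZT4 and 6.83, 28.6 and 32.7 at ZT10. At night it held 31.6, 34.8 and 31.1 at ZT16 and 35.4, 10.7 and 24.6 at ZT22. These libraries overlapped those of RevDKO at all 4 times. None of the 5 members passed in RevScapTKO minus RevDKO by the day-long mean (limma, no member at an unadjusted p under 0.05; 3.0% of genes passed). Day-long differences ran from -0.50 for Per3 (adjusted p = 0.281) to 0.24 for Per1 (0.726), with -0.45 for Cry1 (0.435), -0.18 for Per2 (0.787) and -0.14 for Cry2 (0.906).

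At single times 0.172%, 0.151%, 0.215% and 0.301% of genes passed at ZT4, ZT10, ZT16 and ZT22, with none of the members, and Per3 at ZT4 alone had an unadjusted p under 0.05 (0.0446). For a change in rhythm 0.0% passed (498 genes at an unadjusted p under 0.05). Against Control none passed either, where 3.76% of genes did, and Cry1 came closest at 0.91 log2 (SE 0.28, unadjusted p = 0.00304, adjusted p = 0.0678). That call was gained without Control ZT10 replicate 2 (1.01, adjusted p = 0.0491), RevScapTKO ZT10 replicate 1 (1.1, 0.0128) or RevScapTKO ZT22 replicate 2 (1.02, 0.0285).

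The fit with a hepatocyte marker score gave other counts. The share of all genes passing in that fit was not counted, so its counts have no background. Against Control it called 4 of 5 members, Per1 (0.88, adjusted p = 0.0209), Per2 (0.67, 0.0102), Cry1 (1.22, 0.00325) and Cry2 (1.18, 0.0481). For RevScapTKO minus RevDKO the Per2 difference turned from -0.18 to 0.66 (adjusted p = 0.0415) and that of Cry1 from -0.45 to 0.039. At single times none of the members passed against Control without the score (0.33%, 0.201%, 0.186% and 0.136% of genes at ZT4, ZT10, ZT16 and ZT22), and no gene passed for a change in rhythm (0.0%, 238 genes at an unadjusted p under 0.05). With it Cry1 passed at ZT4 (2.725, adjusted p = 0.0102) and ZT10 (1.97, 0.0452) and Per2 at ZT4 (1.435, 0.0444). Without Control ZT4 replicate 1 Per3 passed at ZT4 (-1.98, adjusted p = 0.0433).

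Rhythm calls in macrophages varied with the test used. With the series entered 2 times JTK_CYCLE called Per2, Per3 and Cry1 in Control (20.2% of genes), and Per2 and Per3 in RevDKO (28.2%) and in RevScapTKO (15.4%). Entered once it called 1 (3.11%), 2 (5.75%) and 1 (2.45%) of the 5. The cosine fit called Cry1 in Control (0.0502% of genes), Per3 in RevDKO (2.53%) and no member in RevScapTKO (0.0789%). The swing of Cry1 was 3.47 log2 in Control (SE 0.57, adjusted p = 0.0133) and 0.97 in RevDKO (SE 0.57, adjusted p = 0.546).

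The Cry1 call in Control was lost without Control ZT4 replicate 2 (adjusted p = 0.0581), ZT16 replicate 2 (0.0902) or ZT16 replicate 3 (0.0671). Per3 swung by 2.40 in Control (adjusted p = 0.0636) and by 2.25 in RevDKO (0.0301). Its Control call was gained without ZT4 replicate 1 (0.00292), ZT22 replicate 1 (0.0413) or ZT22 replicate 3 (0.0305), and its RevDKO call was lost without any of 5 libraries (ZT4 replicate 1, ZT10 replicates 1 and 2, ZT22 replicates 1 and 3; adjusted p of up to 0.0855). Without any one of the ZT16 libraries of RevScapTKO, JTK_CYCLE called 1 member there and not 2.

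In ScapKO macrophages Cry1 was 61.4, 26.0 and 25.1 RPKTM at ZT4 and 16.7, 36.6 and 47.5 at ZT10, and 73.9, 64.5 and 55.8 at ZT16 and 62.5, 144 and 129.9 at ZT22. The night libraries were the higher ones, with 1 overlap, the first ZT4 library. Per3 was highest at ZT16, at 155, 219 and 239.6, above all libraries of the other times, of which the highest held 135. JTK_CYCLE called Per2, Per3 and Cry1 with the series entered 2 times (21.4% of genes) and Cry1 alone entered once (4.26%), and the cosine fit called none (0.0% of 13930 genes, 1412 at an unadjusted p under 0.05), with a Cry1 swing of 1.95 (SE 0.47, adjusted p = 0.444).

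ScapKO ZT22 replicate 2 stood apart here too, with summed macrophage markers of 18334 against a median of 97486 and hepatocyte markers of 118603 against 44433. It held the highest Cry2 value, 298, next to 48.3 and 75.7 in the other ZT22 libraries. JTK_CYCLE called 3 members without it as well, while without ZT22 replicate 1 it called all 5.

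Around the members, a list of 24 other clock genes gave the setting. The list includes the targeted genes Nr1d1 and Nr1d2. In hepatocytes Nr1d1 is counted among those up in RevDKO, and both among those up in RevScapTKO against Control. In hepatocytes 8 of the 24 passed for RevDKO minus Control, 6 up and 2 down, where 4.43% of genes did, with a median of 0.15 log2 against -0.01 over all genes. All 3 activators rose, among them Arntl by 1.83 (SE 0.13, adjusted p = 1.60e-11) and Npas2 by 4.12 (SE 0.30, adjusted p = 1.65e-11), and so did Nfil3, the repressor that competes for D-boxes, by 1.3 (SE 0.13, adjusted p = 1.19e-08). Of 10 modifiers of PER and CRY proteins, such as kinases and ubiquitin ligases, 1 passed, and it fell (Usp2). The change in rhythm passed for 3 of the 24 (0.203% of genes), Arntl (adjusted p = 1.27e-07), Nfil3 (0.00325) and Npas2 (0.0496).

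For RevScapTKO minus RevDKO 5 of the 24 passed in hepatocytes, 2 up and 3 down, a share below the 26.2% of all genes, with a median of -0.05 against -0.03 over all genes. With the macrophage marker score 1 passed, in a fit for which the share of all genes was not counted. Bhlhe40, which encodes the E-box repressor DEC1, fell by 1.06 (SE 0.14, adjusted p = 2.23e-06), Hlf by 0.43 (SE 0.11, adjusted p = 0.00381) and Fbxl21, a ligase for cryptochromes, by 0.66 (SE 0.22, adjusted p = 0.0229). Against Control 13 passed, 9 up and 4 down, where 35.9% of genes did and 7 passed with the score, with Arntl at 1.60 and Npas2 at 3.54 among those up. In macrophages 2 of 24 passed for RevDKO minus Control (0.574% of genes), Npas2 at 3.39 (SE 0.42, adjusted p = 1.10e-05) and Nfil3 at 1.79 (SE 0.34, adjusted p = 0.00415), beside a list median of 0.12 against -0.04. None passed for RevScapTKO minus RevDKO (3.0% of genes). Against Control 3 passed (3.76% of genes), 2 up, Npas2 at 3.41 and Nfil3 at 1.5, and 1 down. Npas2 and Nfil3 were also higher in hepatocytes, whose RNA was present in the macrophage libraries. The source of their differences in macrophages was not tested.

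Across the 12 group means of hepatocytes, the genes most like each member by Pearson correlation of log2 levels are given as a description, over points that share genotypes and times. Cry1 was followed most closely by Ahctf1 (r = 0.940), Art3 (0.925) and Lonrf3 (0.925), and Per2 by Vps13a (0.934), Lrrc28 (0.913) and Zfp623 (0.898). Per3 and Cry2 were among each other's closest 3 at 0.884, Per3 beside Mtx2 (0.915) and Rsu1 (0.896) and Cry2 beside Gars (0.894) and Usp22 (0.876). Per1 was closest to Itpr1 (0.912), Rhobtb1 (0.888) and Dcun1d3 (0.871). Cry1 had no like pattern among the members, with r from -0.24 for Per3 to 0.27 for Per1.

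In macrophages the closest genes were Rnaseh1 (0.964), Itpr2 (0.936) and Uhrf1bp1l (0.917) for Per1, Ramp1 (0.893), A230056P14Rik (0.877) and Cntfr (0.870) for Per2, and Ppih (0.908), Slc4a3 (0.908) and Adgrl1 (0.902) for Per3. Cry1 had C7 (0.867), Rasd1 (0.865) and Ahctf1 (0.847), the last of which was also its closest gene in hepatocytes. Cry2 had Ccdc141 (0.947), Zhx3 (0.947) and Gm10532 (0.942).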

How the data were processed

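Transcript levels of hepatocytes and liver macrophages were measured by ribosome-depleted, stranded RNA sequencing. The authors aligned reads to mm9 with STAR and measured RefSeq transcripts with HOMER; tool versions are not given in the sources used here. The deposited values are an RPKM multiplied by 10 (RPKTM), quantile normalized by the authors within each of 4 tables of 42322 transcripts, so that every library of a table held the same set of values. Depth per library, and any interval that needs it, is therefore unknown, a global rise or fall is hidden, and precision rests on the spread between replicates. No 2 libraries of a table were identical, and the number of per-sample columns left unused was 0. The tables held no comparisons by the authors.

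Samples were grouped by the labels' titles into genotype, cell type and time. Levels were tested with limma 3.58.1 in R 4.3.3 (mean-variance trend) on log2(RPKTM + 1), which understates the change of low genes, with 1 mean per group over the 36 libraries of a table. Genes above 5 RPKTM in at least 3 libraries were kept, each by its transcript with the highest mean. Contrasts were the mean over times, each time point and the 24 h cosine and sine terms. Each compared RevDKO with Control, RevScapTKO with RevDKO and RevScapTKO with Control, the last at single times and for rhythm being added after the values were seen. p-values were adjusted over all genes of a contrast (Benjamini-Hochberg), with a threshold of 0.05. JTK_CYCLE was rewritten in Python 3.11.15 (numpy 2.4.6, pandas 2.3.3; figures with matplotlib 3.10.9). It tried periods of 18 h and 24 h, multiplied p by the 7 patterns tried, and called a transcript rhythmic where 24 h was best, the adjusted p was under 0.05, the highest time mean exceeded the lowest by over 1.5 times and at least 2 libraries exceeded 5 RPKTM. Both were tested on simulated data.

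The text names the 5 members, Nr1d1, Nr1d2 and Scap, the called clock genes with the 3 smallest adjusted p of each contrast (Usp2 was named after its value was seen), and the 3 genes most correlated with each member. The members and lists were chosen with earlier results of these data known. Alternatives were another pseudocount (0.1 or 5), no filter, centring on 6 reference genes, a score of the other cell type's markers as a covariate, a replicate block, leaving out each library, the rhythm series entered once, and a cosine F test. Leaving out the 3 macrophage libraries with a high hepatocyte marker sum was chosen after seeing the data. A gene of the clock list is counted but not reported by name here.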

Additional observations from a re-analysis of the deposited data

Results flagged for a closer look

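The difference of Cry1 between RevDKO and Control hepatocytes was not the same at all times of day, by a test of that difference itself (change in the 24 h cosine and sine terms, limma, adjusted p = 0.000242). It was 2.22 log2 at ZT4 and 2.33 at ZT10, with no overlap of libraries, and 0.13 at ZT16 and -0.0049 at ZT22, with overlap. Of all genes, 12.2% at ZT4 and 17.1% at ZT10 had no overlap. The summed macrophage markers of the hepatocyte libraries moved with time as well, from 192 to 526 RPKTM at ZT4 to 1739 to 2534 at ZT22 in Control and from 398 to 672 to 1385 to 1992 in RevDKO, and with their score in the fit the adjusted p was 2.00e-05.

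The difference of Cry1 between RevScapTKO and Control hepatocytes also varied with time of day by the same test (adjusted p = 0.000347). It was 2.02 log2 at ZT4 and 1.76 at ZT10, with all RevScapTKO libraries above Control, and -0.38 at ZT22, with all of them below, where it did not pass. Of all genes, 25.5% at ZT4, 28.0% at ZT10 and 24.4% at ZT22 had no overlap in this comparison. Per3 in the same comparison was below all Control libraries at ZT10 (-1.29 log2) and above them at ZT22 (1.56), and neither difference passed (adjusted p = 0.196 and 0.102). The test of its change in rhythm did not pass either (adjusted p = 0.364).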

How the results depend on the processing

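Of 5850 refitted values of 180 member differences, 5649 kept their direction and their side of the threshold, 165 changed sign for a difference within 1 SE of 0 and past no threshold, 8 lost the call, 21 gained it and 7 turned sign otherwise. In hepatocytes the number of members passing at ZT10 for RevDKO minus Control was 2 and became 1 with no filter and with centring on reference genes, and 1 to 2 when single libraries were left out. By the day-long mean, the hepatocyte count for RevScapTKO minus Control was 2 and became 1 with the marker score. For RevScapTKO minus RevDKO the day-long count was 0 and ran from 0 to 1 without single libraries. In macrophages the day-long member count for RevDKO minus Control, 1, became 0 without the 3 libraries with a high hepatocyte marker sum. With the marker score it became 1 for RevScapTKO minus RevDKO (Per2) and 4 for RevScapTKO minus Control (Per1 0.88, Per2 0.67, Cry1 1.22, Cry2 1.18), both 0 otherwise, and the latter ran from 0 to 1 without single libraries. The ZT10 count of macrophages for RevDKO minus Control ran from 0 to 1 without single libraries. For RevScapTKO minus Control in macrophages the marker score moved it from 0 to 2 at ZT4 and from 0 to 1 at ZT10, and it ran from 0 to 1 at ZT4 without single libraries. The cause of these changes was not tested, and the share of all genes passing with the marker score was not counted.

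Values that turned sign with the marker score were Cry1 at ZT16 in hepatocytes, RevScapTKO minus RevDKO (0.0082), and in macrophages Per2 at ZT22 for RevDKO minus Control (-0.12). For RevScapTKO minus RevDKO in macrophages they were the means of Per2 (0.66, adjusted p = 0.0415) and Cry1 (0.039) and Per2 at ZT10 (0.99). Per2 at ZT10 also turned without RevScapTKO ZT10 replicate 1, and ran from -1.14 to 0.38 without single libraries. Cry2 at ZT22 for RevScapTKO minus Control in macrophages turned without Control ZT22 replicate 2, and ran from -0.24 to 2.48.

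The clock list counts for RevScapTKO minus RevDKO in hepatocytes became 1 with the marker score, 3 with centring and 2 to 6 without single libraries, and for RevScapTKO minus Control 7 with the marker score. In macrophages the count for RevScapTKO minus Control became 1 with centring. The changed-rhythm count of the list in hepatocytes ran from 2 to 5 without single libraries. Nr1d2 for RevDKO minus Control in hepatocytes ran from 0.52 to 0.83, past the threshold without Control ZT4 replicate 3, Control ZT22 replicate 2 or RevDKO ZT22 replicate 2.

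Rhythmic members became 3 in Control hepatocytes with the series entered once and by cosine, 1 in RevDKO hepatocytes by cosine and 5 with no minimum of peak over trough. In macrophages they became 1 in Control (once, cosine), 1 in RevDKO (cosine), 1 (once) and 0 (cosine) in RevScapTKO, and 1 (once) and 0 (cosine) in ScapKO. Without single libraries they ran from 0 to 1 in RevScapTKO hepatocytes, 1 to 2 in RevScapTKO macrophages and 2 to 5 in ScapKO macrophages.

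Deviations of samples with the same replicate number had a median r of 0.048 in hepatocytes (-0.14 to 0.28 over 36 pairs). In macrophages it was 0.088 (-0.20 to 0.37). Between samples with other numbers the medians were -0.029 in hepatocytes and -0.046 in macrophages. The labels do not say what a shared number means, and the main fit modelled no pairing. With a replicate block 229 of 232 values were unchanged in call; the 3 that changed were Cry1 at ZT10 in macrophages, RevDKO minus Control (2.59, adjusted p = 0.0393), the member count there, 1, and the clock list count for RevScapTKO minus RevDKO in macrophages, 1. The cosine test with the replicate block gave 3 rhythmic members in Control hepatocytes, 1 in RevDKO hepatocytes, and 0 in RevScapTKO and ScapKO macrophages.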
